A study of Mus musculus with 8 samples.

Results

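The NRF2 antioxidant response was followed through 10 named target genes, Srxn1, Txnrd1, Slc7a11, Gclc, Gclm, Gsr, Gsta3, Nqo1, Hmox1 and Osgin1, taken from a given list and found by symbol among the 21690 genes measured. All 10 were in the expression data, 9 could be tested, and Slc7a11 was too low to test. RNA came from the back-skin epidermis of mouse pups at postnatal day 5, with 4 experimental and 4 control libraries. Experimental pups carried K5rTA tetOCre Esrp1flox/flox; Esrp2-/-, that is, floxed Esrp1, null Esrp2 and a Cre switched on by doxycycline through a keratin 5 driven transactivator. Control pups had the genotype Esrp1flox/flox; Esrp2-/-, the same alleles without the transgenes. The dams of both groups ate high-doxycycline chow from embryonic day 17. Both groups therefore lacked Esrp2 by genotype, and the contrast was the added Esrp1 deletion together with the transgenes. Cre of this kind acts where keratin 5 is or has been active, so other cells of the sample keep their Esrp1. Both ESRPs bind RNA and steer splicing in epithelia. The labels name biological replicates without giving animal or litter, so p-values measure the spread between these libraries.

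NRF2, encoded by Nfe2l2, is a transcription factor that pairs with small MAF proteins on antioxidant response elements in DNA. KEAP1 holds it for degradation until oxidants or electrophiles modify KEAP1, and BACH1 competes for the same elements. Its targets make and recycle glutathione, reduce thioredoxin and peroxiredoxins, detoxify quinones and break down heme. In mouse epidermis NRF2 is known for protecting keratinocytes, which meet air, ultraviolet light and chemicals, and for raising some cornified envelope genes.

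Expression is given as TPM, a transcript abundance scaled by gene length, so that levels can be compared between genes. A value listed at 0 means 1 TPM or less, and sequencing depth was unknown because TPM carries none. Between 10401 and 11077 genes per experimental library and between 10523 and 11640 per control library lay above 1 TPM. Esrp1 ranged from 49.8 to 75.6 TPM in experimental libraries and from 131 to 162 TPM in control libraries, without overlap, and Esrp2 from 3.25 to 5.28 TPM in experimental and from 0 to 3.31 TPM in control libraries. Libraries are numbered 1 to 4 within a group in the order of the data columns. The keratinocyte markers Krt1, Krt10, Krt5 and Krt14 were high in every library, and 5 of 5 endothelial markers were listed at 0 throughout. Experimental libraries 2 and 4 held 18.2% and 17.5% mitochondrial transcripts, against 10.6% to 12.6% in the other 6 libraries. The control libraries differed widely among themselves in cell states, which is set out beside the genes it touches. The values are labelled as not batch-corrected, and the labels name no batch. Control libraries 1 and 2 carry the lowest numbers among the data columns. Differences in cell state and an unnamed batch cannot be told apart among these controls.

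Promoter sequences are shown for the 4 members whose groups did not overlap, because they show what these genes share and do not share close to their starts. Each is the 250 bases before a RefSeq start (for Osgin1, a start inside the annotated gene) on GRCm38.p6, read along the gene. All 4 genes lie on the plus strand. The stretches are chr2:152105274-152105523 for Srxn1, chr1:21240335-21240584 for Gsta3, chr3:122245307-122245556 for Gclm and chr8:119436897-119437146 for Osgin1. Capitals mark the core of the antioxidant response element, TGACNNNGC on either strand, in Gsta3 and Gclm, and the AP-1 heptamer TGAGTCA on either strand in Srxn1 and Osgin1.
Srxn1: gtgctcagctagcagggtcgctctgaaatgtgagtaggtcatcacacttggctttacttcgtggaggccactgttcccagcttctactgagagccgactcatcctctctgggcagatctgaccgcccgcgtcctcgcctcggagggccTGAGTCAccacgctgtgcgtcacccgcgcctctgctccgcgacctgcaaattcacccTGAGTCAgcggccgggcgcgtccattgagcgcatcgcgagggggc
Gsta3: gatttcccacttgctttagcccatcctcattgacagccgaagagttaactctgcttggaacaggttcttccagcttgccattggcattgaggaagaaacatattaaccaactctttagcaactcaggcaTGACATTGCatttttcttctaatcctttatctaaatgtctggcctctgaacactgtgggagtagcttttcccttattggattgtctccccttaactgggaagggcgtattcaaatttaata
Gclm: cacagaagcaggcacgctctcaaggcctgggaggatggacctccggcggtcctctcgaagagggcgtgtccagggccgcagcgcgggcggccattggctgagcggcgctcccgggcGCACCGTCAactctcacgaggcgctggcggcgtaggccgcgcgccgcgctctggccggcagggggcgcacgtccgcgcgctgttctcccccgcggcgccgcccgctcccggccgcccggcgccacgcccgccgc
Osgin1: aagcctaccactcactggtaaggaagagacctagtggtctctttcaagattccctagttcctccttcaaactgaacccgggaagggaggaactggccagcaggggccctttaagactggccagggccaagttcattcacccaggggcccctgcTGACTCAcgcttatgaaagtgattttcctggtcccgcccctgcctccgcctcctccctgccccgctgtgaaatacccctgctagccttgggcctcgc

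The element core began at position -121 from the start in Gsta3 and, on the minus strand, at -134 in Gclm. In Srxn1 a core match on the minus strand lay at position 29 within the transcribed stretch, and heptamers began at -102 and -45. In Osgin1 the heptamer began at -97, on the minus strand. Read on its own strand, it is followed by GC, as is the Srxn1 heptamer at -45. Both stretches thus differ from the core only in holding G where the core has its C before NNN. Of the 7 members with a RefSeq window reaching 50 bases past the start, 4 held the core (Srxn1, Gsta3, Gclm and Txnrd1), beside 14.0% of all 27025 genes with a window. The heptamer, looked for after the sequences had been seen, was in 2 of the 7, beside 5.95% of all such genes. A core match and a heptamer can overlap, and did so in 149 of the 32851 windows. Gclc, Gsr and Hmox1 had no entry. These are matches of letters, and binding was not measured.

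Among the 9 tested members, Srxn1 and Gsta3 were higher in experimental epidermis and Osgin1 was lower, and the other 6 did not pass. Passing means an adjusted p under 0.05 in limma, a linear model fitted over all 10682 genes tested, with Benjamini-Hochberg adjustment. Of all genes tested 2.46% passed, 0.917% higher and 1.54% lower. Since the members were picked with earlier results of these data known, the 3 calls among 9 are given as a description. The count was 4 of 9 after median centring (3.6% of all genes) and after quantile normalization (3.61%). It was 2 of 8 without control libraries 1 and 2 (5.19%), 7 of 9 without control libraries 3 and 4 (24.2%) and 0 of 8 without experimental libraries 2 and 4 (0.139%). Groups did not overlap for 4 of 9 members, 2 above and 2 below, beside 12.6% of all genes, 2.7% above and 9.94% below. The members' log2 changes had a median of 0.10, with 5 above 0 and 4 below, beside -0.18 for all genes tested. Setting the libraries to a common median shifted all changes by 0.21 and turned 98 higher and 165 lower genes into 283 and 102, so each change stands beside a median gene of -0.18.

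**Figure D1:**
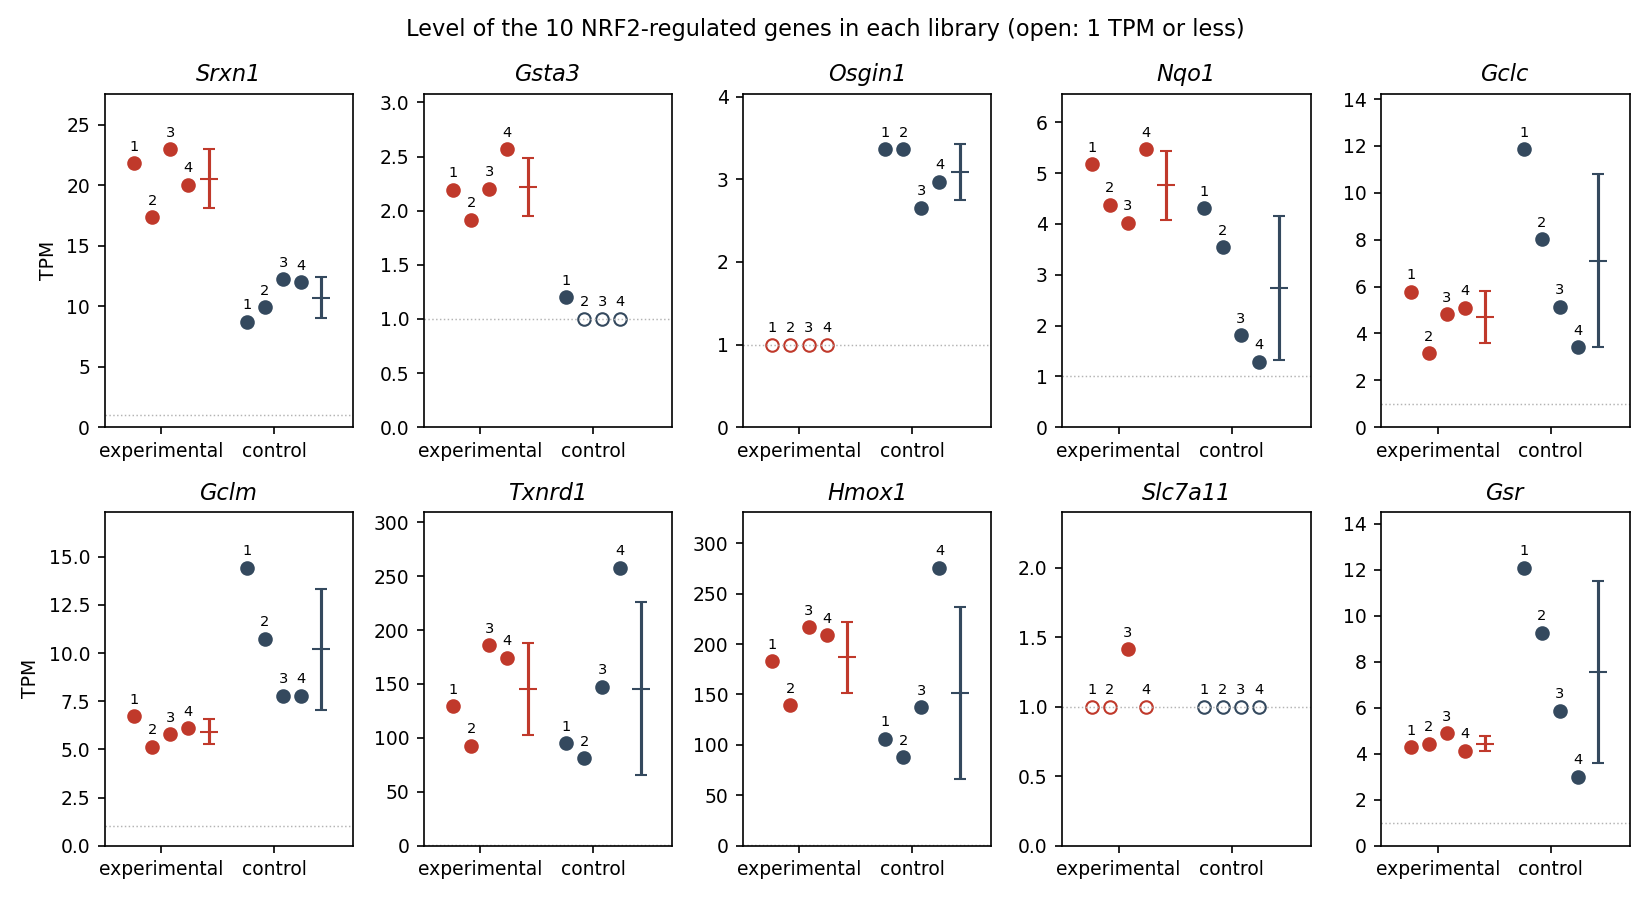
TPM of each member (y axis, linear, from 0) in the 4 experimental and 4 control libraries (x axis), with numbers naming the library, open circles for entries listed at 0, a dotted line at 1 TPM, and bars for mean and SD where all 4 entries lay above 1 TPM. Srxn1, Gsta3, Gclm and Osgin1 show no overlap between groups, and Hmox1, Txnrd1, Gsr, Gclc and Nqo1 spread more among controls than among experimental libraries.

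The first role is the repair of protein thiols. Srxn1 encodes sulfiredoxin, which restores peroxiredoxins that peroxide has over-oxidized (ENSMUSG00000032802.8; chromosome 2, 152105516 to 152111376, plus strand, GRCm38). It stood at 21.8, 17.3, 23.0 and 20.04 TPM in experimental libraries 1 to 4, against 8.70, 9.91, 12.2 and 12.0 TPM in control libraries 1 to 4. Every experimental library lay above every control. Mean levels were 20.5 ± 2.45 and 10.7 ± 1.69 TPM in experimental and control epidermis (n = 4 per group, SD), which is 1.92-fold higher. On the log2(TPM + 1) scale the change was 0.88 (SE 0.17, adjusted p = 0.0272 by limma), and a two-sided exact permutation test gave 0.0286, which is the lowest p that this number of libraries can yield. The size of the change held between 0.71 and 1.10 in all 19 alternative fits. The call was lost when experimental library 1, 3 or 4 or control library 1, 2 or 3 was left out (adjusted p by limma between 0.0536 and 0.105), without control libraries 1 and 2 (0.0630), and without experimental libraries 2 and 4 (0.159).

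Txnrd1 encodes the cytosolic thioredoxin reductase, a selenoprotein that keeps thioredoxin reduced (ENSMUSG00000020250.10; chromosome 10, 82833951 to 82897712, plus strand). It read 129, 92.6, 186 and 174 TPM in experimental libraries and 95.0, 81.1, 147 and 258 TPM in controls. The experimental values fell inside the control range, which ran from below all of them to above all of them. Group means were 145 ± 42.9 TPM in experimental and 145 ± 80.3 TPM in control libraries (n = 4 per group, SD), and the log2 change of 0.10 (SE 0.36) did not pass (adjusted p = 0.908 by limma). Its sign turned with the controls used, at -0.47 (SE 0.33, adjusted p = 0.429 by limma) without control libraries 1 and 2 and 0.67 (SE 0.27, adjusted p = 0.0986 by limma) without control libraries 3 and 4.

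The second role is the supply, recycling and use of glutathione, a small thiol. Slc7a11 encodes the cystine importer that supplies the cysteine of glutathione (ENSMUSG00000027737.10; chromosome 3, 49892526 to 50443614, minus strand). It was listed at 0 in experimental libraries 1, 2 and 4 and in all 4 controls, and read 1.41 TPM in experimental library 3. No comparison was possible at this level.

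Gclc and Gclm encode the catalytic and modifier subunits of glutamate-cysteine ligase, the rate-limiting enzyme of glutathione synthesis. Gclm (ENSMUSG00000028124.15; chromosome 3, 122245557 to 122270732, plus strand) read 6.71, 5.13, 5.78 and 6.09 TPM in experimental libraries and 14.4, 10.7, 7.78 and 7.79 TPM in controls. All experimental libraries lay below all controls, with the highest values in control libraries 1 and 2. It was 1.72-fold lower on average, at 5.93 ± 0.66 TPM in experimental and 10.2 ± 3.16 TPM in control libraries (n = 4 per group, SD), with a log2 change of -0.66 (SE 0.21). This did not pass over all genes (adjusted p = 0.151 by limma). The two-sided exact permutation p was 0.0286, the value that any gene without overlap takes, as 12.6% of all genes tested were. The authors' deposited table, which holds 748 genes and lists lower genes alone, gives Gclm a log2 fold change of -0.55 (SE 0.17, DESeq2 adjusted p = 0.0187). Of the genes tested here 4.72% are in that table. Gclm passed without control libraries 3 and 4, at -0.96 (SE 0.19, adjusted p = 0.0113 by limma), where 22% of all genes tested passed as lower. It did not pass without control libraries 1 and 2, at -0.35 (SE 0.19, adjusted p = 0.306 by limma).

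Its partner Gclc (ENSMUSG00000032350.9; chromosome 9, 77754535 to 77794485, plus strand) read 5.78, 3.15, 4.82 and 5.10 TPM in experimental libraries and 11.9, 8.03, 5.13 and 3.41 TPM in controls. The groups overlapped, since control libraries 3 and 4 fell within the experimental range. Means were 4.71 ± 1.12 TPM in experimental and 7.11 ± 3.70 TPM in control libraries (n = 4 per group, SD), a log2 change of -0.41 (SE 0.32, adjusted p = 0.527 by limma).

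Gsr encodes glutathione reductase, which returns oxidized glutathione to its thiol form at the cost of NADPH (ENSMUSG00000031584.16; chromosome 8, 33652523 to 33698163, plus strand). Its experimental values were tight, at 4.28, 4.43, 4.89 and 4.12 TPM, while the controls read 12.1, 9.25, 5.87 and 3.00 TPM. Control library 4 lay below every experimental library and the other 3 controls lay above them. Means were 4.43 ± 0.33 TPM in experimental and 7.55 ± 3.96 TPM in control libraries (n = 4 per group, SD), and the log2 change of -0.52 (SE 0.32) did not pass (adjusted p = 0.437 by limma). Without control libraries 3 and 4, Gsr changed by -1.09 (SE 0.17, adjusted p = 0.00622 by limma) and Gclc by -0.94 (SE 0.24, adjusted p = 0.0287 by limma). In that fit 22% of all genes tested passed as lower. Without control libraries 1 and 2 the changes were 0.05 (SE 0.24, adjusted p = 0.932 by limma) and 0.11 (SE 0.25, adjusted p = 0.836 by limma).

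Gsta3 encodes an alpha-class glutathione S-transferase, which joins glutathione to electrophiles (ENSMUSG00000025934.15; chromosome 1, 21240589 to 21265661, plus strand). It read 2.19, 1.92, 2.20 and 2.57 TPM in experimental libraries, against 1.2 TPM in control library 1 and 0 in control libraries 2, 3 and 4. The groups did not overlap, and most control entries sat at the floor. The log2 change was 0.65 (SE 0.14, adjusted p = 0.0361 by limma), computed with entries at the floor set to 1 TPM. Gsta3 entered the test mainly through its experimental values. Its call was lost when experimental library 1, 2, 3 or 4 or control library 2 or 3 was left out (adjusted p by limma between 0.0561 and 0.127), with changes of 0.60 to 0.70. Alpha-class genes resemble each other in sequence, so how reads were shared among them is uncertain.

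The third role covers quinones and heme. Nqo1 encodes NAD(P)H quinone dehydrogenase, a classical NRF2 target (ENSMUSG00000003849.8; chromosome 8, 107388225 to 107403206, minus strand). It read 5.18, 4.38, 4.02 and 5.47 TPM in experimental libraries and 4.31, 3.54, 1.81 and 1.29 TPM in controls. Control library 1 lay within the experimental range, and the other 3 controls lay below it. Nqo1 was 1.74-fold higher on average, at 4.76 ± 0.68 TPM in experimental and 2.74 ± 1.42 TPM in control libraries (n = 4 per group, SD), but the log2 change of 0.70 (SE 0.27) did not pass (adjusted p = 0.210 by limma). It passed after median centring, at 0.91 (SE 0.20, adjusted p = 0.0434 by limma), and after quantile normalization, at 0.92 (SE 0.18, adjusted p = 0.0249 by limma). Without control libraries 1 and 2 it passed at 1.18 (SE 0.20, adjusted p = 0.0183 by limma), and without control libraries 3 and 4 the change was 0.22 (SE 0.18, adjusted p = 0.358 by limma).

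Hmox1 encodes heme oxygenase 1, the inducible enzyme that opens the heme ring (ENSMUSG00000005413.8; chromosome 8, 75093621 to 75100589, plus strand). Its mean was the highest of the members in both groups, with a range that overlapped that of Txnrd1, at 183, 139, 217 and 209 TPM in experimental libraries and 106, 87.8, 137 and 276 TPM in controls. The experimental libraries lay above control libraries 1, 2 and 3 and below control library 4. Means were 187 ± 34.9 TPM in experimental and 152 ± 85.2 TPM in control libraries (n = 4 per group, SD), and the log2 change of 0.42 (SE 0.33) did not pass (adjusted p = 0.533 by limma). Without control libraries 3 and 4 it passed at 0.92 (SE 0.20, adjusted p = 0.0162 by limma), and without control libraries 1 and 2 it stood at -0.08 (SE 0.30, adjusted p = 0.909 by limma).

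Heme oxygenase is also a gene of macrophages that clear red cells. Of 13 Langerhans cell and macrophage markers 11 were above the floor somewhere, C1qb and Mrc1 were listed at 0 in every library, and their summed level ran from 283 to 569 TPM in experimental and from 210 to 794 TPM in control libraries. The sum of 7 erythroid markers ran from 222 to 4178 TPM in experimental and from 182 to 9586 TPM in control libraries. Hmox1 was highest in control library 4, where the macrophage list was at its lowest mean log2 level (2.83), and lowest in control library 2, where the erythroid list was at its highest (7.38). The part of these cells in the Hmox1 levels was not tested.

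Osgin1 encodes an oxidative stress induced growth inhibitor, a target of NRF2 (ENSMUSG00000074063.10; chromosome 8, 119434124 to 119446256, plus strand). It was listed at 0 in all 4 experimental libraries and read 3.36, 3.36, 2.66 and 2.97 TPM in controls. The groups did not overlap, and Osgin1 was the sole member with every experimental entry at the floor and every control above it. Against a floor of 1 TPM per library it was at least 3.09-fold lower, from a control mean of 3.09 ± 0.34 TPM (SD, n = 4). The fitted log2 change of -1.03 (SE 0.14, adjusted p = 0.00490 by limma) rests on that floor. Osgin1 entered the test through its control values alone. The authors' deposited table gives a log2 fold change of -1.61 (SE 0.18, DESeq2 adjusted p = 1.19e-16). The call held when any 1 library was left out (adjusted p by limma between 0.00500 and 0.0282) and was lost without experimental libraries 2 and 4 (adjusted p = 0.10 by limma).

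**Figure D2:**
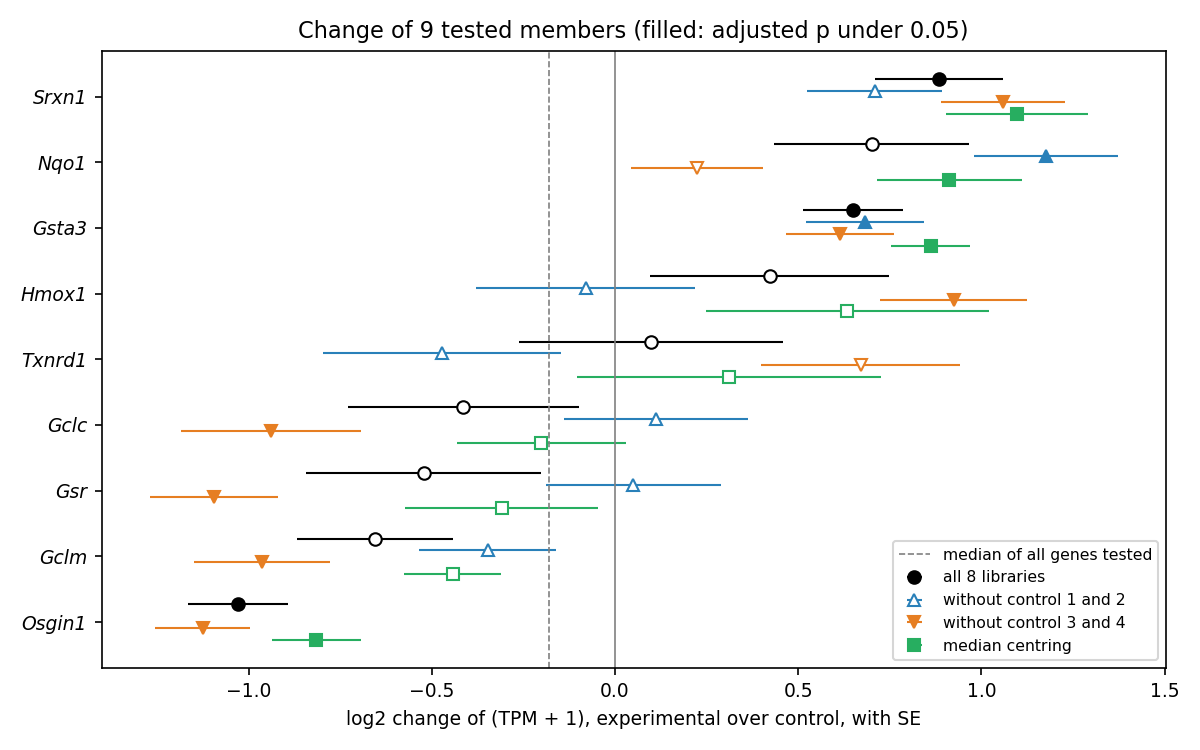
Log2 change of (TPM + 1), experimental over control, with SE (x axis), for the 9 tested members (y axis) over all 8 libraries, without either pair of controls and after median centring, with filled symbols for adjusted p under 0.05 and a dashed line at -0.18, the median of all genes tested. Srxn1 and Gsta3 stay above 0 and Osgin1 and Gclm below 0 in the fits drawn (Osgin1 was not tested without control libraries 1 and 2), while Txnrd1, Hmox1, Gclc and Gsr cross 0 when control libraries 1 and 2 are left out.

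In experimental libraries the levels ran from Hmox1 and Txnrd1, whose ranges overlapped, down to Srxn1, which stood apart from both neighbours. Gclm, Nqo1, Gclc and Gsr followed at 3.15 to 6.71 TPM, each overlapping the next. Gsta3, at 1.92 to 2.57 TPM, stood below them, and Slc7a11 and Osgin1 were last. In controls Hmox1 and Txnrd1 also led, and Srxn1, Gclm, Gsr and Gclc overlapped in turn at 3.00 to 14.4 TPM. Osgin1 and Nqo1 overlapped next, and Gsta3 and Slc7a11 were last. Osgin1 held the seventh place in controls and the last in experimental epidermis.

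Spread within groups differed between the members. The SD of log2(TPM + 1) among controls was larger than among experimental libraries for 8 of 9 members, and for 64.7% of all genes tested. Its median over the members was 0.17 in experimental and 0.57 in control libraries, beside 0.23 and 0.32 over all genes tested. The 8 include Osgin1, whose 4 experimental entries all sat at the floor, which fixed that SD at 0. Gsta3, the exception, had 3 of 4 control entries at the floor. Control library 4 had the highest Hmox1 and Txnrd1 and the lowest Gsr, Gclc and Nqo1 of the controls, whereas control library 1 had the highest Gsr, Gclc, Gclm and Nqo1. Fewer cells of a type and less RNA per cell cannot be told apart in such bulk samples.

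Markers of keratinocyte states moved with these differences among controls. The mean log2(TPM + 1) of 9 basal keratinocyte genes was 5.00, 5.01, 5.79 and 5.31 in experimental libraries and 6.98, 6.72, 5.95 and 4.37 in control libraries. For 12 cell cycle genes it was 2.74, 2.92, 2.84 and 2.62 in experimental libraries and 4.55, 3.90, 2.48 and 1.61 in controls. For 20 hair follicle genes it was 7.74, 5.37, 6.73 and 7.39 in experimental libraries and, in controls, 7.56, 8.26, 8.99 and 9.59. Control library 1 was thus richest in basal and dividing-cell transcripts, and control library 4 richest in hair transcripts. The 9 suprabasal genes ran from 11.1 to 11.5 in experimental and from 11.1 to 11.3 in control libraries on this scale. Their summed level, in which the most abundant keratins weigh most, was 73463 to 89865 TPM in experimental and 40929 to 66770 TPM in control libraries, without overlap. The 12 sebaceous genes stood at 3.31 to 3.94 in experimental and at 4.11 to 5.41 in control libraries, without overlap, while their summed level overlapped at 1694 to 1958 TPM in experimental and 1097 to 2042 TPM in control libraries. The part of these states in the members' differences was not tested.

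**Figure D3:**
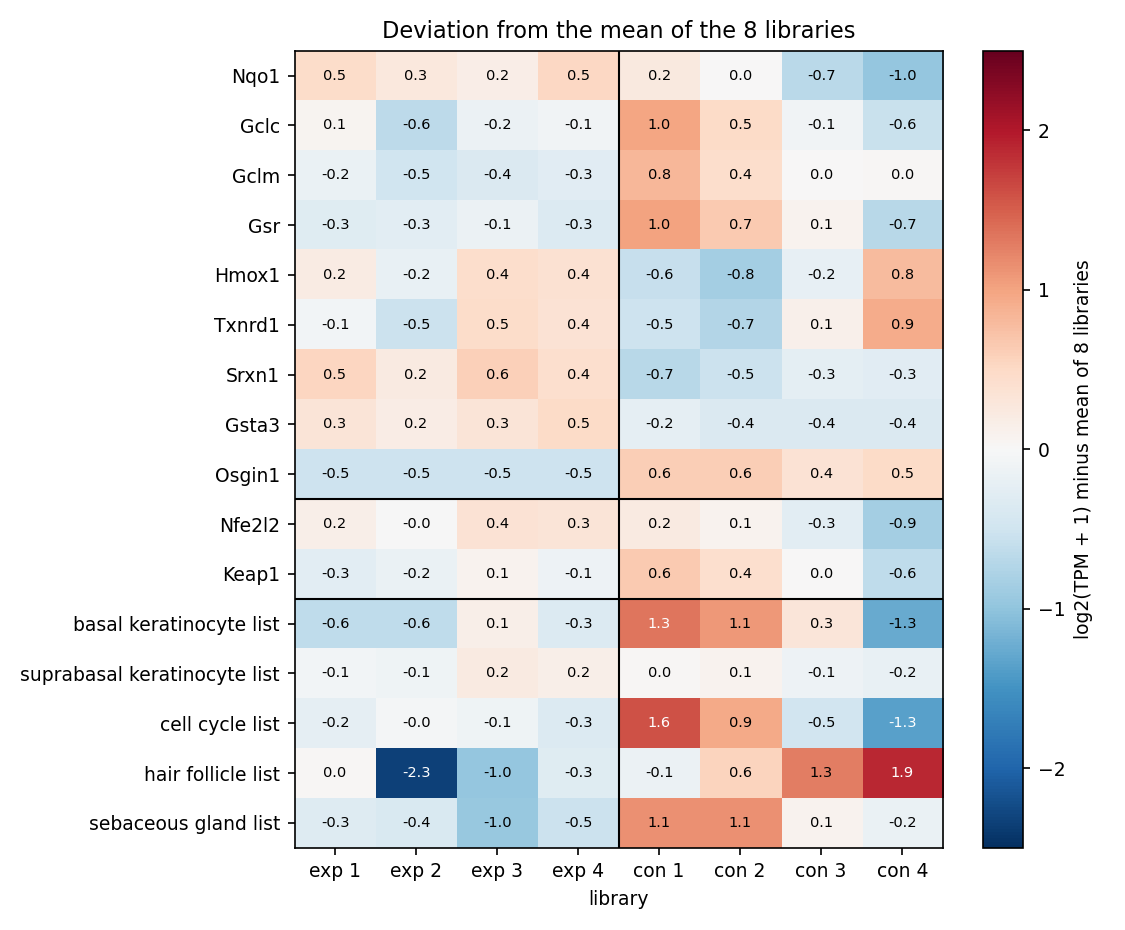
Deviation of log2(TPM + 1) from the mean of the 8 libraries (colour and printed value) for members, for Nfe2l2 and Keap1, and for 5 marker lists (rows), in experimental libraries 1 to 4 and control libraries 1 to 4 (columns). Gsr, Gclc, Nfe2l2 and Keap1 are lowest of the controls in library 4, as are the basal and cell cycle lists, while Hmox1, Txnrd1 and the hair list are highest there.

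Among the marker genes 1 of 9 basal, 1 of 9 suprabasal and 1 of 12 sebaceous genes fell, beside 1.54% of all genes tested. None of the hair follicle or cell cycle genes passed by limma, although 13 of 20 hair follicle genes had an unadjusted p under 0.05 (0 of 12 cell cycle genes did), beside 16.9% of all genes tested. Markers of other cell types were often too low to test. Of the mast cell and neutrophil list Cma1, Tpsb2, Cpa3, Ly6g and Mpo were listed at 0 throughout. Its other genes, S100a8 and S100a9, summed to 48.0 to 153 TPM in experimental and 49.0 to 160 TPM in control libraries. Lum and Pdgfra of fibroblasts were at 0 in every library as well, and the fibroblast sum reached 3.29 TPM in experimental and 31.6 TPM in control libraries. The T cell list summed to 4.83 to 21.5 TPM in experimental and 1.84 to 22.5 TPM in control libraries, with Cd4 and Cd8a at 0 throughout. Adipoq, Plin1, Lep and Cfd of the adipocyte list and Ckm, Myh3, Myh8 and Tnnt3 of the muscle list were at 0 throughout. The remaining adipocyte gene, Fabp4, read 71.1 to 276 TPM in experimental and 100 to 1129 TPM in control libraries. Acta1 of the muscle list was at 0 in experimental libraries and reached 1.77 TPM in controls. The melanocyte sum ran from 34.9 to 83.8 TPM in experimental and from 60.4 to 150 TPM in control libraries.

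The genes that control NRF2 did not pass in either direction (0 of 10 by limma). An unadjusted p under 0.05 by limma was found for 1, beside 16.9% of all genes tested. Nfe2l2 itself read 20.7, 18.4, 24.2 and 23.5 TPM in experimental libraries and 21.7, 19.7, 15.2 and 9.78 TPM in controls. The groups overlapped, with control library 4 lowest, and the log2 change was 0.42 (SE 0.24, adjusted p = 0.405 by limma). Keap1, its inhibitor, read 10.9, 11.7, 14.2 and 12.1 TPM in experimental libraries and, in controls, 21.3, 18.1, 13.4 and 8.23 TPM, a change of -0.23 (SE 0.26, adjusted p = 0.676 by limma). Without control libraries 3 and 4 Keap1 passed as lower, at -0.65 (SE 0.17, adjusted p = 0.0286 by limma). In that fit 22% of all genes tested passed as lower. Sqstm1 encodes p62, an autophagy receptor that binds KEAP1. It was the 1 of 10 regulators whose groups did not overlap, beside 12.6% of all genes tested. Its levels were 140, 104, 133 and 105 TPM in experimental libraries and 81.2, 77.6, 64.3 and 70.2 TPM in controls, 1.65-fold higher (log2 change 0.70, SE 0.17, adjusted p = 0.0609 by limma). It passed after median centring (adjusted p = 0.0122 by limma), after quantile normalization (adjusted p = 0.00806 by limma), without control libraries 1 and 2 (adjusted p = 0.0465 by limma) and without control libraries 3 and 4 (adjusted p = 0.0388 by limma). It did not pass when any 1 library was left out (adjusted p by limma between 0.0535 and 0.184). Nor did it pass without experimental libraries 2 and 4 (adjusted p = 0.166 by limma).

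The small MAF partners read 28.9 ± 5.23 and 22.8 ± 4.18 TPM for Maff, 14.5 ± 3.18 and 18.7 ± 3.05 TPM for Mafg, and 14.8 ± 2.19 and 12.6 ± 0.60 TPM for Mafk in experimental and control libraries (n = 4 per group, SD). The competitor Bach1 read 10.3 ± 1.71 and 10.8 ± 1.31 TPM, and its relative Bach2 1.31 ± 0.28 and 1.66 ± 0.83 TPM, in experimental and control libraries. Cul3, the ubiquitin ligase scaffold that works with KEAP1, read 115 ± 9.89 and 124 ± 29.8 TPM, and Nfe2l1, a relative of NRF2, 53.2 ± 10.3 and 64.2 ± 4.55 TPM, in experimental and control libraries. No member and no regulator appeared among the 236 genes of the authors' deposited splicing table.

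Beyond the members, other genes of the response were counted by role. In NADPH supply, which feeds glutathione and thioredoxin reductases, 1 of 6 tested genes fell, beside 1.54% of all genes tested, and none rose. The median log2 change was -0.47. All 6 changes were below 0, as were 74.5% of those of all genes tested. After median centring none passed. Without control libraries 1 and 2 there were 2 lower, beside 3.24% of all genes tested. Without control libraries 3 and 4 there were 3 lower, beside 22% of all genes tested. The gene that fell was Taldo1, transaldolase of the pentose phosphate pathway, at 90.8 ± 18.8 and 217 ± 68.5 TPM in experimental and control libraries (n = 4 per group, SD), a change of -1.22 (SE 0.24, adjusted p = 0.0291 by limma). Median centring ended that call (adjusted p = 0.0846 by limma), as did leaving out experimental library 1, 2, 3 or 4 or control library 2 or 3 (adjusted p by limma between 0.0507 and 0.0862).

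In the wider glutathione system 1 of 20 tested genes fell, beside 1.54% of all genes tested, and none rose, with a median of -0.18. Median centring turned this to 2 higher and 0 lower, beside 2.65% and 0.955% of all genes tested. Quantile normalization left 0 and 1, beside 2.52% and 1.1% of all genes tested. Without control libraries 1 and 2 the counts were 2 and 1, beside 1.95% higher and 3.24% lower of all genes tested. Without control libraries 3 and 4 they were 1 and 8, beside 2.25% higher and 22% lower of all genes tested. Mgst3, a microsomal glutathione transferase, read 48.3, 31.6, 37.8 and 33.7 TPM in experimental libraries and 71.2, 73.6, 71.5 and 79.8 TPM in controls, 1.96-fold lower (log2 change -0.97, SE 0.17, adjusted p = 0.0189 by limma). Median centring ended the call (adjusted p = 0.0600 by limma), as did leaving out experimental library 3 or 4 or control library 2 or 3 (adjusted p by limma between 0.0588 and 0.0704). The genes that passed as higher after centring were Gsto1, an omega-class glutathione transferase, at 1.76 (SE 0.38, adjusted p = 0.0439 by limma), and Mgst2, another microsomal transferase, at 1.22 (SE 0.26, adjusted p = 0.0439 by limma). Without centring Gsto1 read 331, 298, 343 and 218 TPM in experimental libraries and 160, 179, 82.2 and 41.7 TPM in controls, 2.57-fold higher and without overlap (log2 change 1.55, SE 0.41, adjusted p = 0.0818 by limma). Mgst2 was 1.92-fold higher, also without overlap (log2 change 1.01, SE 0.28, adjusted p = 0.0955 by limma). Of the 19 tested conjugation and export genes none passed by limma, and their median was 0.13. An unadjusted p under 0.05 by limma was found for 5 of them, beside 16.9% of all genes tested. The calls turned with the controls used. Without control libraries 1 and 2 there were 5 higher (Gsta1, Gsta2, Gsta4, Cbr3 and Ptgr1) and 0 lower. Of all genes tested 1.95% were higher and 3.24% lower in that fit. Without control libraries 3 and 4 there were 0 higher and 5 lower (Gstm2, Gstp1, Ugdh, Ephx1 and Aldh3a1). Of all genes tested 2.25% were higher and 22% lower there, so the 5 lower lay near the share of all genes. Median centring gave 1 higher, beside 2.65% of all genes tested. This was Ptgr1, at 0.95 (SE 0.17, adjusted p = 0.0197 by limma). Ptgr1, prostaglandin reductase 1, read 209 ± 17.4 and 129 ± 36.3 TPM (adjusted p = 0.113 by limma), and Gsta1, another alpha-class transferase, 92.9 ± 16.6 and 51.2 ± 25.3 TPM (adjusted p = 0.166 by limma) in experimental and control libraries (n = 4 per group, SD). Gsta2 and Gsta4 lay in the same direction as Gsta3 without passing, at log2 changes of 0.62 (SE 0.27, adjusted p = 0.289 by limma) and 0.95 (SE 0.42, adjusted p = 0.282 by limma). Gsto1, Mgst2, Gsta2, Gsta4 and the genes listed by control pair were chosen after their values were seen.

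Among 14 tested thioredoxin system genes none passed by limma, with a median of -0.22. An unadjusted p under 0.05 by limma was found for 3 of them, beside 16.9% of all genes tested. Without control libraries 1 and 2 there was 1 higher and 0 lower, beside 1.95% and 3.24% of all genes tested. Without control libraries 3 and 4 there were 0 and 6, beside 2.25% and 22% of all genes tested. Prdx3, the mitochondrial peroxiredoxin, read 7.155 ± 0.85 and 10.4 ± 0.73 TPM in experimental and control libraries (n = 4 per group, SD; adjusted p = 0.15 by limma). Msrb3, a methionine sulfoxide reductase, read 2.30, 0, 0 and 1.49 TPM in experimental libraries and 4.70, 4.70, 2.57 and 2.57 TPM in controls (adjusted p = 0.0768 by limma). Of the 4 superoxide dismutase and catalase genes 1 fell and none rose, beside 1.54% lower and 0.917% higher of all genes tested. After median centring 1 rose and none fell, beside 2.65% higher and 0.955% lower of all genes tested. Sod3, the extracellular superoxide dismutase, was listed at 0 in all 4 experimental libraries and read 2.49, 3.34, 5.48 and 10.5 TPM in controls (log2 change -1.53, SE 0.32, adjusted p = 0.0340 by limma), at least 5.44-fold lower against the floor of 1 TPM per library. It entered the test through its control values alone. It did not pass after median centring (adjusted p = 0.126 by limma), after quantile normalization (adjusted p = 0.117 by limma) or without the filter on low values (adjusted p = 0.0549 by limma). Leaving out experimental library 1, 2, 3 or 4 or control library 2 or 3 also ended its call (adjusted p by limma between 0.0531 and 0.107). The gene that passed after centring was Cat, catalase, at 0.65 (SE 0.13, adjusted p = 0.0330 by limma), named after its values were seen. Without centring it read 157, 138, 197 and 177 TPM in experimental libraries and 124, 129, 134 and 103 TPM in controls, without overlap (log2 change 0.44, SE 0.17, adjusted p = 0.223 by limma).

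In heme and iron handling 1 of 10 tested genes fell, beside 1.54% of all genes tested, and none rose, with a median of -0.42. After median centring none passed. Without control libraries 1 and 2 there was 1 lower, beside 3.24% of all genes tested. Without control libraries 3 and 4 there were 4 lower, beside 22% of all genes tested. Hmox2, the constitutive heme oxygenase, read 20.4, 21.2, 22.5 and 19.6 TPM in experimental libraries and 40.3, 40.1, 30.6 and 34.3 TPM in controls, 1.74-fold lower and without overlap (log2 change -0.76, SE 0.16, adjusted p = 0.0333 by limma). It did not pass after median centring (adjusted p = 0.0622 by limma), without control libraries 1 and 2 (adjusted p = 0.0724 by limma), or when experimental library 1, 2, 3 or 4 or control library 1, 2 or 3 was left out (adjusted p by limma between 0.0664 and 0.116). Without experimental libraries 2 and 4 the calls of Taldo1, Mgst3, Sod3 and Hmox2 were all lost (adjusted p by limma between 0.221 and 0.345). The authors' deposited table, which lists lower genes alone, holds all 4, with DESeq2 adjusted p of 0.0142 for Taldo1, 0.0171 for Mgst3, 4.72e-07 for Sod3 and 0.00949 for Hmox2. It also holds Tkt of the NADPH supply list and Msrb3 (DESeq2 adjusted p = 0.0147 and 0.0277). Neither passed here over all 8 libraries, with an adjusted p of 0.0607 by limma for Tkt. Tkt was named after its values were seen.

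ATF4, the amino acid stress factor, shares Slc7a11 with NRF2, and metal-responsive transcription shares Hmox1. None of 12 ATF4 genes passed by limma (0 had an unadjusted p under 0.05, beside 16.9% of all genes tested). Slc3a2, the partner chain of the cystine importer, read 38.9 ± 4.18 and 53.4 ± 14.6 TPM in experimental and control libraries (n = 4 per group, SD). Trib3, a pseudokinase, read 7.80 ± 0.40 and 10.1 ± 1.60 TPM in experimental and control libraries. None of 3 metal-responsive genes passed (0 had an unadjusted p under 0.05). The zinc exporter gene Slc30a1 read 46.3 ± 9.97 TPM in experimental and 59.0 ± 31.0 TPM in control libraries. Mt2, a metallothionein, read 61.8, 177, 91.1 and 70.5 TPM in experimental libraries and 482, 251, 78.2 and 14.9 TPM in controls.

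Active NRF2 is known to raise some envelope and secreted genes in mouse epidermis. Of 4 such genes 2 rose, Sprr2d and Sprr2h, which encode small proline-rich envelope proteins, beside 0.917% of all genes tested. These 4 were listed with earlier results of these data known, so the count is a description. The part of NRF2 in their levels was not tested. Sprr2d read 293, 268, 297 and 295 TPM in experimental libraries and 6.80, 6.28, 2.54 and 4.82 TPM in controls. Its log2 change was 5.63 (SE 0.24, adjusted p = 3.37e-06 by limma). Sprr2h stood at 370.3 ± 31.6 and 50.6 ± 16.1 TPM in experimental and control libraries (n = 4 per group, SD), a log2 change of 2.89 (SE 0.21, adjusted p = 0.000228 by limma). The other 2 were Slpi and Epgn, at log2 changes of 2.17 (SE 0.53, adjusted p = 0.0619 by limma) and 0.81 (SE 0.35, adjusted p = 0.267 by limma).

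**Figure D4:**
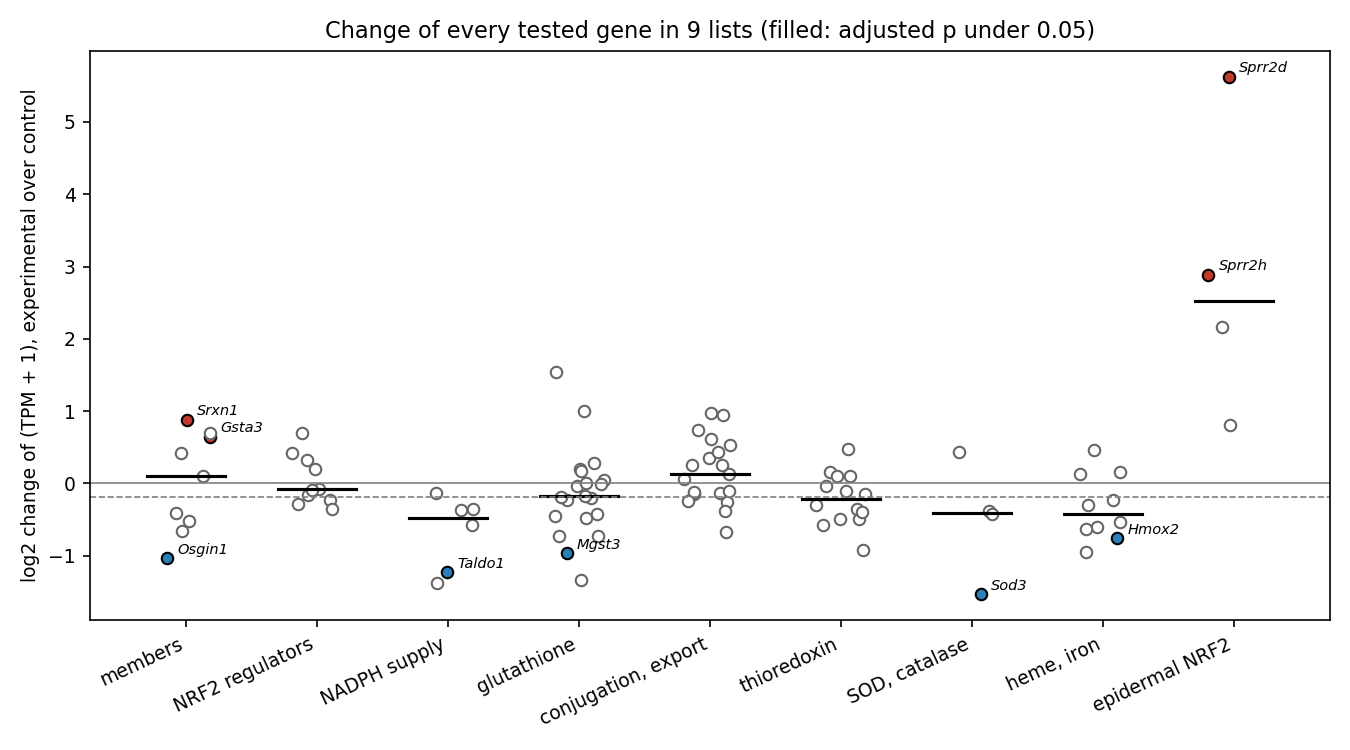
Log2 change of (TPM + 1), experimental over control (y axis), of every tested gene in 9 lists (x axis), with filled and named points for adjusted p under 0.05, bars for list medians and a dashed line at the median of all genes tested. The named antioxidant genes outside the members, Taldo1, Mgst3, Sod3 and Hmox2, lie below 0, and Sprr2d and Sprr2h lie far above the rest.

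Genes with the profile most like each changed member were found by Pearson correlation over the 8 libraries among 7448 genes with a mean of at least 5 TPM. Nearest to Srxn1 were Pla2g2f, a secreted phospholipase (r = 0.97), 2210017I01Rik (r = 0.97) and Prrg2 (r = 0.97). Gsta3 was closest to Il1f5, the antagonist of the IL-36 receptor (r = 0.99), Grhl3, a barrier transcription factor (r = 0.98), and Blmh, bleomycin hydrolase (r = 0.98). For Osgin1 the closest was Hmox2 (r = 0.98), followed by Sfxn2 (r = 0.98) and Acot7 (r = 0.98). Pla2g2f read 810, 721, 890 and 864 TPM in experimental libraries and 479, 458, 523 and 484 TPM in controls. Entries of Gsta3 and Osgin1 at the floor carry no differences among libraries, so their likeness describes little beyond the step between the groups.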

How the data were processed

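Expression was measured in 8 libraries of mouse epidermis. RNA came from an RNeasy kit and libraries from NEBNext Ultra, per the labels' protocols. Builds GRCm38 and mm10 and the tools Salmon 0.14.0, SAMtools 1.9, STAR and DESeq stand in the submitters' processing notes, which tie no tool to a table. The authors' deposited expression table holds log2 TPM per gene, with entries at or under 1 TPM at 0. Its scale was checked against the authors' mean normalized count signal per kilobase, whose ratio to 2 to the power of the value was 0.99 times as high in the lowest of 4 bins of genes as in the highest, and 1.43 times if 1 was subtracted. The authors' deposited differential table gives p-values, log2 fold changes and a Wald score from DESeq2, and their splicing table gives PSI as a fraction, per the file headers and the design text.

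Columns show the group but no replicate number of the labels, so libraries were grouped and not paired. Of 21690 identifiers 21662 matched a symbol. Values were turned to TPM, set to at least 1, and tested as log2(TPM + 1) for genes with mean TPM of at least 1 (entries at 0 counted as 0), by limma 3.58.1 in R 4.3.3 with a variance trend and group as sole term. On this scale, folds of low genes come out too small. The fit was tested on simulated data. Single members were compared by exact permutation (scipy 1.17.1). Named genes were the members, 10 regulators, up to 4 passing genes per list or the 2 of lowest p, and the 3 most similar profiles of each changed member. Members and lists were chosen with earlier results of these data known. Alternatives were pseudocounts of 0.1 and 0.5 TPM, leaving out the filter or raising it to 5 TPM, median centring, quantile normalization, no trend, estimated library weights, a threshold of 0.1, and leaving out libraries. Gene locations are from GENCODE M21 and promoters from RefSeq, both GRCm38.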

Additional observations from a re-analysis of the deposited data

Results flagged for a closer look

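Of 47 groups of 4 libraries checked among the named genes, 3 held a library far from the rest by Dixon's ratio of gap to range, and chance flags about 1 in 20 such groups. Mafk stood at 11.5 TPM in experimental library 2, against 15.5 to 16.2 TPM in the other experimental libraries. Sprr2d stood at 268 TPM in that same library, against 293 to 297 TPM in the other experimental libraries. Sprr2h stood at 74.7 TPM in control library 4, against 41.0 to 44.4 TPM in the other controls. None of the 10 antioxidant members held such a library among the groups that could be checked.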

How the results depend on the processing

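Each group had 4 libraries, and depth was unknown. No paired analysis was possible because the data columns carry a group and an unexplained number, not the replicate numbers of the labels. Over all genes 263 passed, 98 higher and 165 lower. Counts of passing, higher and lower genes and of members were 385, 283, 102 and 4 after median centring, 386, 269, 117 and 4 after quantile normalization, and 4423, 748, 3675 and 8 with library weights. At a threshold of 0.1 they were 534, 174, 360 and 3, and with a mean of at least 5 TPM 191, 77, 114 and 1. Without control libraries 1 and 2 they were 544, 204, 340 and 2, without control libraries 3 and 4 they were 2595, 241, 2354 and 7, and without experimental libraries 2 and 4 they were 15, 14, 1 and 0. These library pairs were picked for their marker and mitochondrial levels. Leaving out single libraries gave 85 to 578 passing genes, 36 to 158 higher, 47 to 420 lower and 1 to 3 members. Without any filter, without a variance trend and with the smaller pseudocounts the counts stayed within 1.5 times. The element core was in 4 members' windows, the core followed by A in 2 and TGAGTCA in 2.

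Among 25 named genes 375 refits kept direction and side of the threshold, 49 lost the call, 21 gained it and 22 changed sign. The signs that changed belonged to genes that did not pass. Without control libraries 1 and 2 the log2 changes became 0.11 for Gclc, -0.47 for Txnrd1, -0.080 for Hmox1, 0.050 for Gsr, 0.19 for Keap1, 0.058 for Bach1 and 0.10 for Bach2. Centring gave 0.14 for Bach1, 0.047 for Bach2 and 0.12 for Cul3, and quantile normalization 0.14, 0.026 and 0.022. Cul3 stood at 0.14 with library weights and 0.053 without control libraries 3 and 4. Over single libraries left out, Txnrd1 ran from -0.13 to 0.42, Bach1 from -0.13 to 0.031, Bach2 from -0.27 to 0.030 and Cul3 from -0.17 to 0.062. The cause of these changes was not tested.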
